A study of Homo sapiens with 14 samples.

Results

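Of 19410 genes measured by RNA-Seq in MDA-MB-231 cells, a human triple-negative breast cancer line, 49 had low mean levels in the parental, SAP30-KO and SIN3A+SIN3B-DKO cells and were on in at least 1 line without MLL1. The members were chosen by their transcript levels in TPM (a level corrected for transcript length and scaled to the same total in each library). The mean had to lie under 1 TPM in the 2 parental libraries, in the 4 SAP30-KO libraries and in the 4 SIN3A+SIN3B-DKO libraries, and both libraries of MLL1-KO1 or both of MLL1-KO2 had to reach 2 TPM. Of the 49 genes, 18 were on in both MLL1-KO lines, 9 in MLL1-KO1 alone and 22 in MLL1-KO2 alone. Since these values chose the genes, their levels against the parental cells are given below as a description. Where genes are counted as called against the parental cells, the count is no test of the members. The means allow single libraries above the ceiling, and 19 of the 49 genes reached 1 TPM in at least 1 of the 10 libraries outside the MLL1-KO lines.

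The study sequenced mRNA from untreated cells of 7 groups with 2 libraries each. They were the unedited parental cells, 2 SAP30 knockout lines (SAP30-KO1 and SAP30-KO2), 2 lines lacking both SIN3A and SIN3B (SIN3A+SIN3B-DKO1 and SIN3A+SIN3B-DKO2) and 2 MLL1 knockout lines (MLL1-KO1 and MLL1-KO2). All 6 edited lines were made with CRISPR/Cas9, each from several knockout cells that were grown and pooled, and the parental cells carried no edit, so each line also differs from them by its own editing and selection. Nothing in the labels says that the 2 libraries of a group came from separate cultures, so the p-values measure the spread between libraries, which may be technical.

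MLL1, the protein of the KMT2A gene, methylates lysine 4 of histone H3, a mark found at active promoters, and is best known for keeping genes active in development and in leukemia. SIN3A and SIN3B are scaffolds of a histone deacetylase complex, in which SAP30 is a subunit. Silent genes can come on after the loss of a chromatin regulator whether or not it ever bound them, which RNA levels do not show.

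The KMT2A transcript, listed under its older name MLL, stood at 56.7 and 48.98 TPM in the parental cells, at 17.4 and 15.8 TPM in MLL1-KO1 and at 25.7 and 27.7 TPM in MLL1-KO2. It fell by 1.64 ± 0.146 on the log2 scale in MLL1-KO1 (SE, limma adjusted p = 2.75e-06) and by 0.97 ± 0.146 in MLL1-KO2 (limma adjusted p = 0.000153). The transcript was lowered but not absent, and 1 of the 4 SAP30-KO libraries, which spanned 23.0 to 35.4 TPM, lay below both MLL1-KO2 libraries. The study checked its knockout lines for the protein by immunoblot, and these RNA levels do not measure how much protein remained. The libraries held 18415039 to 23162686 reads assigned to genes, with a median of 21648532. VIM and CD44, markers of the mesenchymal MDA-MB-231 line, were at 5741 to 8805 TPM and 267 to 611 TPM, and the hormone receptor genes ESR1 and PGR stayed at or under 0.191 TPM. ERBB2 at 21.9 to 42.8 TPM and EPCAM at 5.33 to 19.2 TPM were not at 0.

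**Figure D1:**
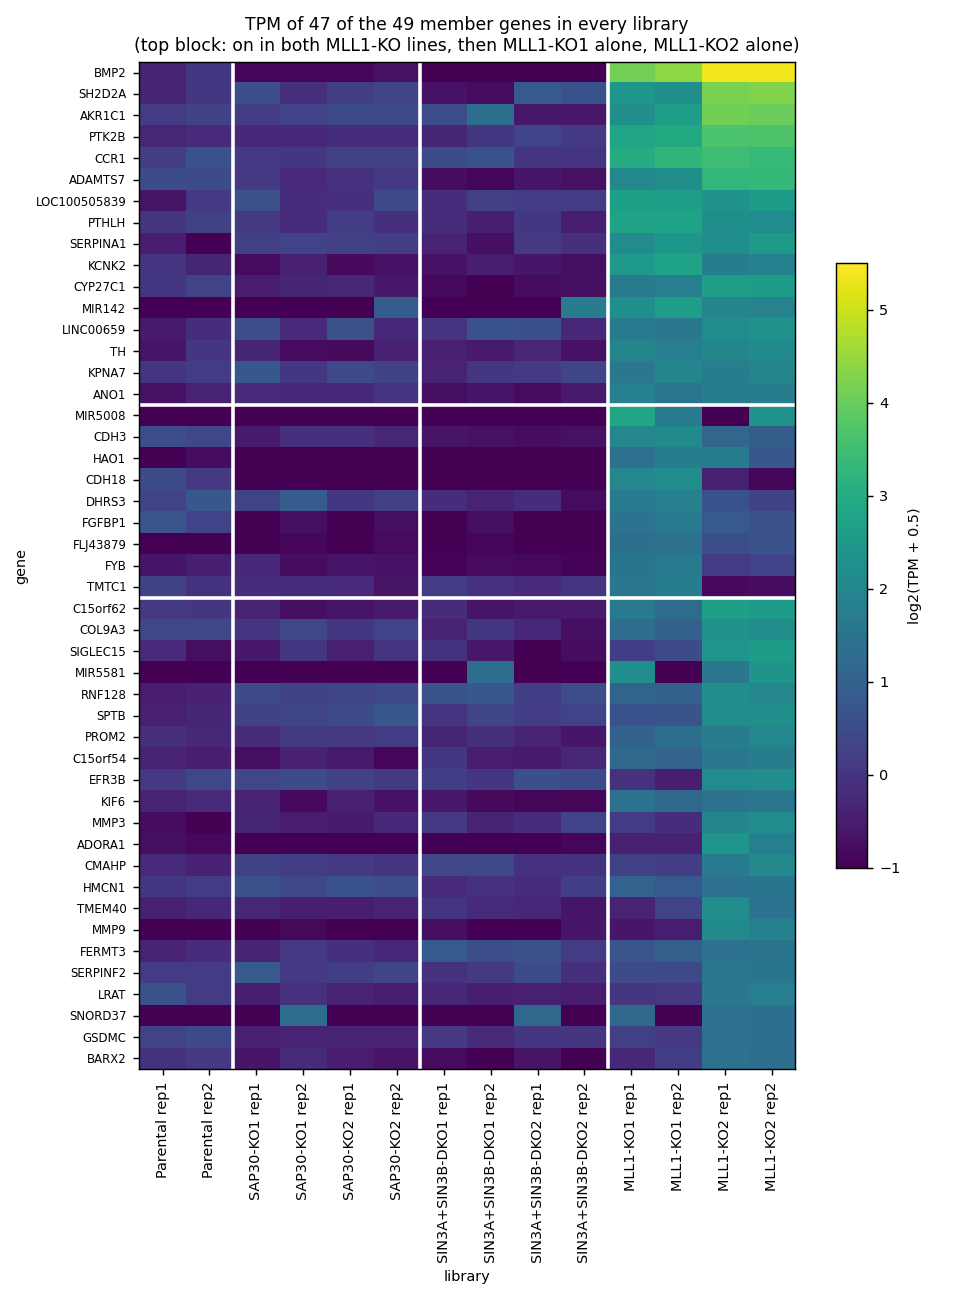
Level of 47 of the 49 genes (rows) in the 14 libraries (columns), as log2(TPM + 0.5) by color. The top block holds 16 of the 18 genes on in both MLL1-KO lines, the middle block the 9 on in MLL1-KO1 alone and the bottom block the 22 on in MLL1-KO2 alone, and BMP2 reached the highest level, 40.8 TPM in a library of MLL1-KO2.

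BMP2, a secreted ligand of the bone morphogenetic protein family (chr20:6748333-6760893, plus strand, GRCh37), had the highest level of the set. It stood at 0.265 and 0.544 TPM in the parental cells, at 0.0380 to 0.116 TPM in the SAP30-KO libraries and at 0 in all 4 SIN3A+SIN3B-DKO libraries. It stood at 17.1 and 20.4 TPM in MLL1-KO1 and at 40.8 and 40.7 TPM in MLL1-KO2. In reads, these are 6 and 12 in the parental libraries against 440, 516, 870 and 920 in the MLL1-KO libraries. The means were 46.4 times the parental mean in MLL1-KO1 and 101 times in MLL1-KO2. Both parental libraries lay above all 8 libraries of the SAP30 and SIN3 lines, which held 0 to 3 reads. Of all genes tested, 20.4% had this order, and the difference for BMP2, which rests on few reads, was not tested.

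The other secreted proteins on in both lines were ADAMTS7, PTHLH and SERPINA1. ADAMTS7, a metalloprotease of the extracellular matrix (chr15:79051548-79103806, minus strand, GRCh37), stood at 0.937 and 0.910 TPM in the parental cells, 0.376 to 0.557 TPM in the SAP30-KO libraries and 0.0450 to 0.151 TPM in the SIN3A+SIN3B-DKO libraries. It stood at 3.62 and 4.15 TPM in MLL1-KO1 and at 9.33 and 9.58 TPM in MLL1-KO2. PTHLH, the parathyroid hormone-related protein, stood at 0.527 and 0.703 TPM in the parental cells, 6.23 and 6.37 TPM in MLL1-KO1 and 4.20 and 4.01 TPM in MLL1-KO2. SERPINA1, the protease inhibitor alpha-1 antitrypsin, stood at 0.226 and 0 TPM in the parental cells, 3.89 and 4.83 TPM in MLL1-KO1 and 4.20 and 5.29 TPM in MLL1-KO2. For these secreted proteins all 4 MLL1-KO libraries lay above the other 10, as in all 18 genes on in both lines. The choice of genes largely fixes this, and 7.61% of all genes tested did so.

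CCR1, a chemokine receptor of leukocytes (chr3:46243202-46249804, minus strand, GRCh37), stood at 0.624 and 1.07 TPM in the parental cells and at 0.488 to 1.06 TPM in the 8 SAP30 and SIN3 libraries. It stood at 7.43 and 8.98 TPM in MLL1-KO1 and at 10.6 and 9.73 TPM in MLL1-KO2. All 4 MLL1-KO libraries lay above the other 10, which the choice of genes largely fixes.

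SH2D2A and PTK2B carry signals inside the cell. SH2D2A, an adaptor first known from T cells (chr1:156776035-156786640, minus strand, GRCh37), stood at 0.302 and 0.542 TPM in the parental cells, 4.85 and 4.18 TPM in MLL1-KO1 and 17.8 and 18.7 TPM in MLL1-KO2. In SIN3A+SIN3B-DKO2 it was at 1.29 and 1.05 TPM, while SIN3A+SIN3B-DKO1 held 0.128 and 0.0669 TPM, so the double knockout lines did not overlap. PTK2B, a cytoplasmic tyrosine kinase of the focal adhesion kinase family, stood at 0.318 and 0.357 TPM in the parental cells, 6.43 and 7.26 TPM in MLL1-KO1 and 12.2 and 12.3 TPM in MLL1-KO2.

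Ion channel genes were also on in both lines. KCNK2, a background potassium channel, stood at 0.511 and 0.2996 TPM in the parental cells, 5.15 and 6.34 TPM in MLL1-KO1 and 2.90 and 3.14 TPM in MLL1-KO2. ANO1, a calcium-activated chloride channel, stood at 0.1097 and 0.282 TPM in the parental cells, 3.15 and 2.43 TPM in MLL1-KO1 and 2.80 and 2.86 TPM in MLL1-KO2. KCNK2 had both MLL1-KO1 libraries above both MLL1-KO2 libraries, while the ANO1 libraries of the lines overlapped.

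Of the enzymes, CYP27C1, a cytochrome P450 that acts on retinoids, stood at 0.534 and 0.762 TPM in the parental cells, 2.67 and 2.92 TPM in MLL1-KO1 and 5.80 and 5.56 TPM in MLL1-KO2. TH, tyrosine hydroxylase, the rate-limiting enzyme of catecholamine synthesis, stood at 0.146 and 0.523 TPM in the parental cells, 3.40 and 2.93 TPM in MLL1-KO1 and 3.48 and 3.72 TPM in MLL1-KO2. AKR1C1, an aldo-keto reductase of steroid hormones, stood at 0.605 and 0.725 TPM in the parental cells, 4.18 and 5.69 TPM in MLL1-KO1 and 16.9 and 15.6 TPM in MLL1-KO2. AKR1C1 also reached 2.06 TPM in the second library of SIN3A+SIN3B-DKO1, against 0.939 TPM in the first. It is part of a family of closely related genes among which reads can be split. Its relatives AKR1C2 and AKR1C4 stayed at or under 0.235 and 0.117 TPM in every library. AKR1C3 was at 4.92 and 5.55 TPM in the parental cells, 87.0 and 95.7 TPM in MLL1-KO1 and 187 and 186 TPM in MLL1-KO2. How reads were split among these genes was not tested, so the level of AKR1C1 is uncertain.

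KPNA7, an importin that carries proteins into the nucleus, stood at 0.495 and 0.593 TPM in the parental cells, 2.48 and 3.40 TPM in MLL1-KO1 and 2.80 and 3.39 TPM in MLL1-KO2. Its annotated span overlaps MYH16 on the opposite strand. MYH16 stood at 1.84 and 1.76 TPM in the parental cells, 21.3 and 22.03 TPM in MLL1-KO1 and 23.2 and 25.1 TPM in MLL1-KO2. Whether reads were counted by strand is not given in the sources used here, and overlap of the exons was not checked. Part of the KPNA7 reads may therefore be of MYH16, which was not tested.

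**Figure D2:**
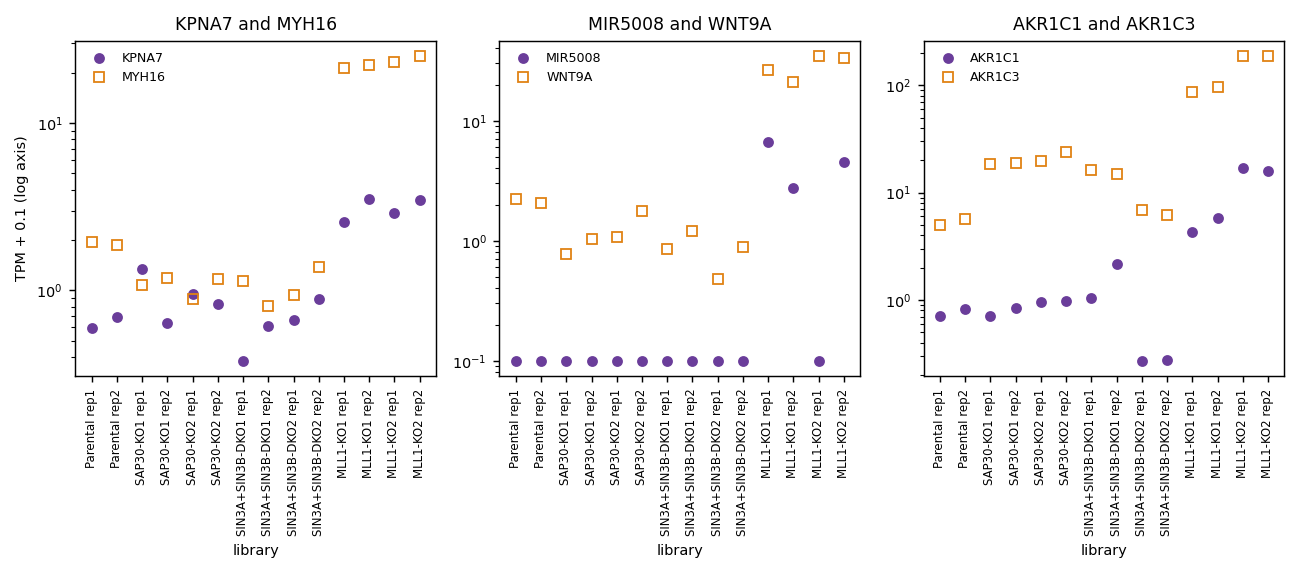
Level of 3 members (filled circles) and of a gene that overlaps or resembles each (open squares) in the 14 libraries, as TPM + 0.1 on a log axis. MYH16, WNT9A and AKR1C3 were higher in all 4 MLL1-KO libraries than in the other 10, as were KPNA7 and AKR1C1, while MIR5008 was at 0 in 1 library of MLL1-KO2.

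Non-coding genes on in both lines were LOC100505839, LINC00659 and MIR142. LOC100505839 stood at 0.137 and 0.565 TPM in the parental cells, 5.88 and 5.72 TPM in MLL1-KO1 and 4.52 and 5.37 TPM in MLL1-KO2. LINC00659, a long non-coding RNA (chr20:61404332-61408348, minus strand, GRCh37), rested on 1 and 2 reads in the parental libraries and on 16, 14, 19 and 23 reads in the MLL1-KO libraries. MIR142, the gene of a microRNA abundant in blood cells, had 3 and 4 reads in MLL1-KO1, with 2 in each library of MLL1-KO2. It had none in the parental libraries, 1 read in a SAP30-KO2 library and 2 reads in a SIN3A+SIN3B-DKO2 library, at 2.79 TPM. Counts of this size cannot place MIR142 on or off, since its short length turns a single read into more than 1 TPM.

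The 3 microRNA genes and SNORD37, 4 of the 49, never exceeded 5 reads in any library, while the other 45 had at least 14 reads in each library of the line in which they were on. MIR5008 had 5 and 2 reads in MLL1-KO1, with 0 and 3 in MLL1-KO2 and none elsewhere. It lies inside WNT9A, a Wnt ligand gene on the same strand, which stood at 2.13 and 1.96 TPM in the parental cells, 26.6 and 20.9 TPM in MLL1-KO1 and 34.5 and 33.2 TPM in MLL1-KO2, so the MIR5008 reads and WNT9A reads cannot be told apart. MIR5581, inside MEAF6, had 1 and 2 reads in MLL1-KO2, 2 and 0 in MLL1-KO1 and 1 in a SIN3A+SIN3B-DKO1 library. SNORD37, a small nucleolar RNA gene, had 1 read in each MLL1-KO2 library, 1 in a library of MLL1-KO1 and 1 in each of 2 other libraries. The mature microRNAs of these genes are shown because the table counts mRNA-library reads over the hairpin gene, not the short products that act in the cell. Seeds, bases 2 to 8, are in capitals (RefSeq, GRCh38.p14), and all 6 differ.
hsa-miR-142-3p: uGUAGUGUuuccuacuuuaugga
hsa-miR-142-5p: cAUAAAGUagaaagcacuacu
hsa-miR-5008-3p: cCUGUGCUcccagggccucgc
hsa-miR-5008-5p: uGAGGCCCuuggggcacagugg
hsa-miR-5581-3p: uUCCAUGCcuccuagaaguucc
hsa-miR-5581-5p: aGCCUUCCaggagaaauggaga

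The MLL1-KO lines were next compared with each other for the 18 genes on in both, a contrast that the choice of these 18 did not use beyond the common threshold. By limma on log2(TPM + 0.5) over 13540 genes, called at an adjusted p under 0.05 and at least 1.5-fold, 6 of the 18 were higher in MLL1-KO2 and 1 was lower. Over all genes tested 7.15% were called higher in MLL1-KO2 and 3.27% lower. Since the 18 were chosen for high levels in these libraries, their counts are not tested against these shares. SH2D2A differed most, with a log2 difference of 1.90 ± 0.218 (SE, adjusted p = 5.24e-05), followed by AKR1C1 at 1.64 ± 0.236 (adjusted p = 0.000253). ADAMTS7 differed by 1.19 ± 0.153 (adjusted p = 0.00012) and BMP2 by 1.10 ± 0.17 (adjusted p = 0.000396). CYP27C1 differed by 0.91 ± 0.174 (adjusted p = 0.00175) and PTK2B by 0.80 ± 0.154 (adjusted p = 0.00183). For these 6 genes both libraries of MLL1-KO2 lay above both of MLL1-KO1.

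KCNK2 was lower in MLL1-KO2, by -0.82 ± 0.203 on the log2 scale (limma adjusted p = 0.00758), and its call was lost with a pseudocount of 0.1 and without the second MLL1-KO1 library. PTHLH, at -0.56 ± 0.208 (adjusted p = 0.0504), narrowly missed the threshold. The remaining 10 genes were not called, among them MIR142 at -0.52 and LINC00659 at 0.60. The mean was higher in MLL1-KO2 for 14 of the 18, of which ANO1, SERPINA1 and KPNA7 changed sign with quantile normalization. The KMT2A transcript itself was higher in MLL1-KO2, by 0.67 ± 0.146 (limma adjusted p = 0.00363), and its part in these differences was not tested.

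**Figure D3:**
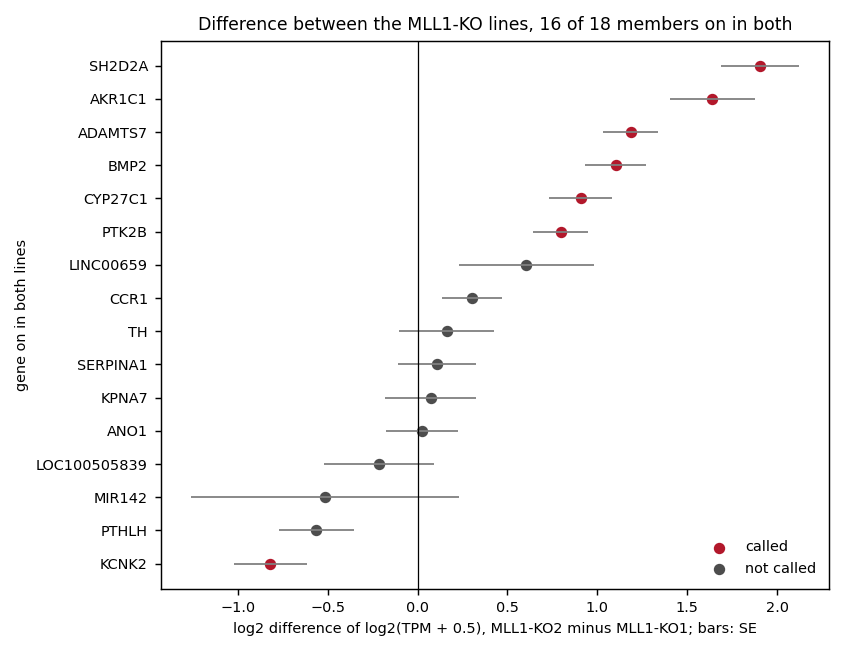
Log2 difference between the MLL1-KO lines for 16 of the 18 genes on in both (points, bars are the SE), with positive values for genes higher in MLL1-KO2. Red points mark the 7 called genes, 6 to the right of 0 and KCNK2 to the left.

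The 9 genes on in MLL1-KO1 alone were 2 cadherins, 2 metabolic enzymes, FGFBP1, FYB, TMTC1, FLJ43879 and MIR5008. CDH3, P-cadherin, a cell adhesion protein of epithelia, stood at 0.943 and 0.801 TPM in the parental cells, 3.53 and 3.84 TPM in MLL1-KO1 and 1.73 and 1.40 TPM in MLL1-KO2. CDH18, a cadherin best known from neurons (chr5:19471405-20575982, minus strand, GRCh37), stood at 0.901 and 0.555 TPM in the parental cells and at 3.50 and 4.03 TPM in MLL1-KO1. It stood at 0.239 and 0.0451 TPM in MLL1-KO2, and no read was counted in any of the 8 SAP30 and SIN3 libraries. In reads, CDH18 held 20 and 12 in the parental libraries, with 88 and 100 in MLL1-KO1 but 5 and 1 in MLL1-KO2.

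TMTC1, which adds mannose to proteins in the endoplasmic reticulum, shared that split, with 0.696 and 0.466 TPM in the parental cells, 2.44 and 2.82 TPM in MLL1-KO1 and 0.0642 and 0.0757 TPM in MLL1-KO2. Its 8 SAP30 and SIN3 libraries held 0.133 to 0.602 TPM, all above both MLL1-KO2 libraries. For CDH18 and TMTC1 both MLL1-KO1 libraries thus lay above both parental libraries and both MLL1-KO2 libraries below them.

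FYB, an adaptor of T cells and platelets now named FYB1, stood at 0.141 and 0.232 TPM in the parental cells, 2.36 and 2.65 TPM in MLL1-KO1 and 0.599 and 0.734 TPM in MLL1-KO2. FLJ43879 had no read in either parental library, 61 and 62 reads in MLL1-KO1, and fewer in MLL1-KO2, with 23 and 27, at 2.14, 2.21, 0.973 and 1.08 TPM. HAO1, the glycolate oxidase of liver peroxisomes, had 1 read in all 10 libraries outside the MLL1-KO lines. It stood at 2.25 and 2.85 TPM in MLL1-KO1 and at 2.87 and 1.20 TPM in MLL1-KO2, so it missed the class of genes on in both by 1 library. FGFBP1, a secreted carrier of fibroblast growth factors, stood at 1.13 and 0.736 TPM in the parental cells, at most 0.0950 TPM in the SAP30 and SIN3 libraries, 2.26 and 2.75 TPM in MLL1-KO1 and 1.30 and 1.03 TPM in MLL1-KO2. DHRS3, a retinal reductase, stood at 0.770 and 1.19 TPM in the parental cells, 2.65 and 3.03 TPM in MLL1-KO1 and 1.06 and 0.694 TPM in MLL1-KO2, so its MLL1-KO2 and parental libraries overlapped.

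**Figure D4:**
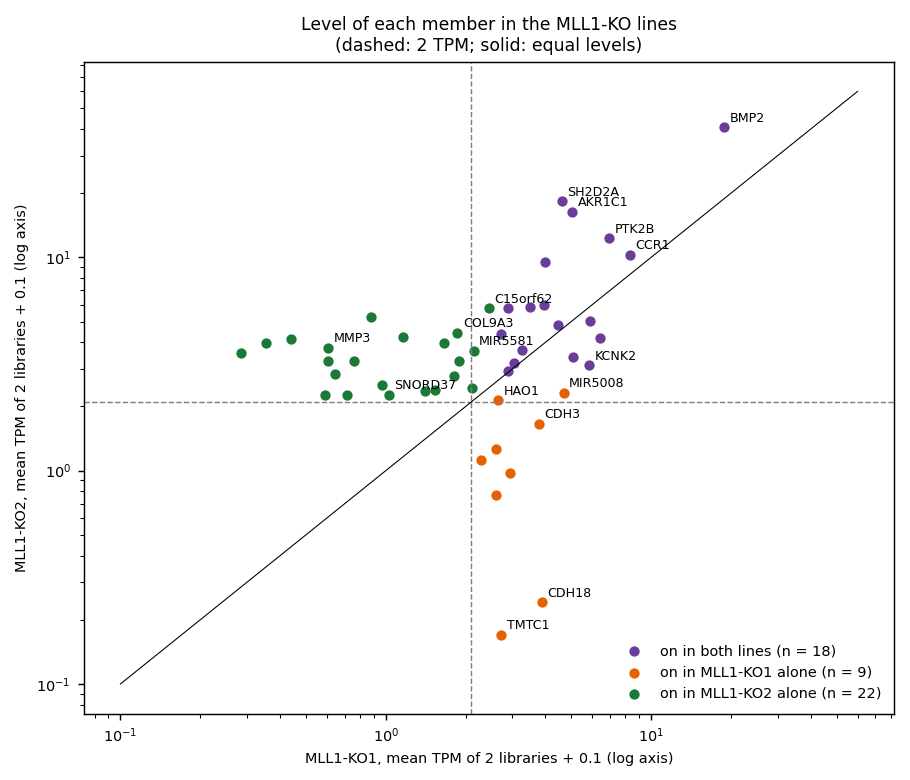
Mean TPM of each member in MLL1-KO1 and in MLL1-KO2 (2 libraries each, + 0.1, log axes). Dashed lines mark 2 TPM and the solid line equal levels, with CDH18 and TMTC1 far below it and BMP2 at the upper right, at 18.8 and 40.7 TPM.

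The 22 genes on in MLL1-KO2 alone included several of the extracellular matrix. MMP9, a matrix metalloprotease that cleaves collagens (chr20:44637547-44645200, plus strand, GRCh37), had no read in the parental libraries and at most 3 in the SAP30 and SIN3 libraries. In MLL1-KO1 it had 3 and 4 reads but in MLL1-KO2 60 and 52, at 3.79 and 3.10 TPM. MMP3, another matrix metalloprotease, had 1 and 0 reads in the parental cells, with 9 and 6 in MLL1-KO1 but 43 and 51 in MLL1-KO2. MMP3 differed from MMP9 in the SAP30 and SIN3 lines, where all 8 libraries held 0.196 to 0.730 TPM and lay above both parental ones, at 0.0761 and 0 TPM. COL9A3, a chain of a cartilage collagen, stood at 0.839 and 0.804 TPM in the parental cells, 2.02 and 1.503 TPM in MLL1-KO1 and 4.52 and 4.15 TPM in MLL1-KO2. HMCN1, a large matrix protein, stood at 0.527 and 0.596 TPM in the parental cells, 1.58 and 1.29 TPM in MLL1-KO1 and 2.20 and 2.38 TPM in MLL1-KO2.

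Of the cell-surface proteins, ADORA1, an adenosine receptor, had 2 and 1 reads in the parental libraries, 1 read in all 8 SAP30 and SIN3 libraries, 6 in each library of MLL1-KO1 but 94 and 63 in MLL1-KO2. SIGLEC15, a sialic acid-binding lectin of myeloid cells, stood at 0.370 and 0.0949 TPM in the parental cells, 0.652 and 0.910 TPM in MLL1-KO1 and 4.81 and 5.55 TPM in MLL1-KO2. PROM2, a prominin of membrane protrusions, stood at 0.441 and 0.332 TPM in the parental cells, 1.53 and 2.05 TPM in MLL1-KO1 and 2.84 and 3.50 TPM in MLL1-KO2, so 1 library of MLL1-KO1 passed 2 TPM. ADORA1 and MMP9 were thus near 0 in MLL1-KO1, while PROM2 missed the class of genes on in both by 1 library.

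Of the cytoskeletal and membrane-linked proteins, SPTB, the beta spectrin of red cells, stood at 0.241 and 0.302 TPM in the parental cells, 1.05 and 1.08 TPM in MLL1-KO1 and 4.02 and 4.25 TPM in MLL1-KO2. EFR3B, which anchors a lipid kinase at the plasma membrane, stood at 0.559 and 0.823 TPM in the parental cells, 0.444 and 0.234 TPM in MLL1-KO1 and 3.92 and 4.14 TPM in MLL1-KO2. FERMT3, the integrin activator kindlin of blood cells, stood at 0.272 and 0.392 TPM in the parental cells, 1.15 and 1.46 TPM in MLL1-KO1 and 2.20 and 2.35 TPM in MLL1-KO2, with SIN3A+SIN3B-DKO1 at 1.29 and 0.968 TPM. KIF6, a kinesin motor, stood at 2.22 and 1.79 TPM in MLL1-KO1 and 2.27 and 2.42 TPM in MLL1-KO2, so its place outside the genes on in both rests on 1 library just under 2 TPM.

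Some of these genes overlap a gene on the opposite strand that is read in every library, so part of their reads may be of that gene, which was not tested. ADAMTS7 overlaps MORF4L1, at 186 to 225 TPM, COL9A3 overlaps TCFL5, at 49.7 to 62.1 TPM, and C15orf62 overlaps DNAJC17, at 19.8 to 27.9 TPM. SIGLEC15 overlaps EPG5, at 14.1 to 21.5 TPM, and FERMT3 overlaps TRPT1, at 20.6 to 34.6 TPM with its highest levels in the SIN3A+SIN3B-DKO libraries. SPTB overlaps PLEKHG3, which stood at 18.4 and 16.2 TPM in the parental cells, 21.5 and 22.4 TPM in MLL1-KO1 and 30.9 and 29.5 TPM in MLL1-KO2.

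RNF128, a ubiquitin ligase, stood at 0.204 and 0.251 TPM in the parental cells, 0.662 to 1.19 TPM in the SAP30 and SIN3 libraries, 1.62 and 1.497 TPM in MLL1-KO1 and 4.20 and 3.55 TPM in MLL1-KO2. LRAT, which esterifies retinol, stood at 1.02 and 0.613 TPM in the parental cells, 0.527 and 0.560 TPM in MLL1-KO1 and 2.51 and 2.96 TPM in MLL1-KO2. Unlike for RNF128, both MLL1-KO1 libraries of LRAT lay under both parental ones. C15orf62 stood at 0.559 and 0.516 TPM in the parental cells, 2.76 and 1.95 TPM in MLL1-KO1 and 5.81 and 5.53 TPM in MLL1-KO2. All of these were higher in both MLL1-KO2 libraries than in any other library. C15orf54, a non-coding gene now named LINC02915, held 2.54 and 2.80 TPM in MLL1-KO2, and the pseudogene CMAHP 2.66 and 3.65 TPM. TMEM40, a membrane protein, held 4.06 and 2.28 TPM in MLL1-KO2 and SERPINF2, the inhibitor alpha-2-antiplasmin, 2.46 and 2.37 TPM. GSDMC, a gasdermin, held 2.23 and 2.103 TPM and BARX2, a homeobox factor, 2.26 and 2.05 TPM, with neither above 1 TPM in any library outside MLL1-KO2.

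Across all 49 genes, 38 were called higher in MLL1-KO1 than in the parental cells, where 6.89% of all genes tested were, and 44 in MLL1-KO2, where 10.2% were. These counts follow largely from how the genes were chosen, and all 49 passed the filter on low values for the same reason. Of the 22 genes on in MLL1-KO2 alone, 11 were called higher in MLL1-KO1 as well, and of the 9 on in MLL1-KO1 alone, 4 were called higher in MLL1-KO2. The same parental libraries entered both comparisons. All 4 MLL1-KO libraries lay above all 10 others in 32 of the 49, made up of all 18 on in both, 4 of 9 and 10 of 22. Of all genes tested, 7.61% did so, but the choice of genes largely fixes the count among the members, which is therefore a description.

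The lines without SAP30 or without SIN3A and SIN3B were not at one level for these genes. Both parental libraries lay above all 8 of those libraries in 13 of the 49 and below all 8 in 4 of the 49, RNF128, SPTB, MMP3 and CMAHP. Of all genes tested, 20.4% had both parental libraries above and 21.6% below. The choice of genes capped the means of all these groups under 1 TPM, so the counts are a description and are not read against these shares. The ceiling of 1 TPM was set on means, and 30 of the 49 stayed under 1 TPM in each of the 10 libraries outside the MLL1-KO lines. A mean of 1 TPM or more in a single line occurred in 7 genes for a SIN3A+SIN3B-DKO line, among them AKR1C1, RNF128, FERMT3, SH2D2A, MIR142 and MIR5581, and in DHRS3 and SPTB for a SAP30-KO line.

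Genes just inside the 2 TPM threshold, by their lower library, were BARX2 at 2.05 TPM, GSDMC at 2.103 TPM and SNORD37 at 2.11 TPM, and genes just outside were MIR5694 at 1.98 TPM, FAM225B at 1.96 TPM and MUM1L1 at 1.95 TPM. At the parental ceiling, DHRS3 and FGFBP1 lay just inside at means of 0.978 and 0.931 TPM, and MIR4449, SLITRK6 and MIA just outside at 1.08, 1.11 and 1.16 TPM. At the SAP30-KO ceiling, HMCN1, SPTB and KPNA7 lay inside at 0.962, 0.891 and 0.837 TPM, and FLRT3, COL16A1 and PPFIA4 outside at 1.03, 1.03 and 1.28 TPM. At the SIN3A+SIN3B-DKO ceiling, FERMT3, RNF128 and AKR1C1 lay inside at 0.975, 0.972 and 0.837 TPM, and PRLR, ADAMTS17 and ATP8A2 outside at 1.01, 1.03 and 1.14 TPM. The same thresholds applied to the first libraries of each group alone took 59 genes, of which 36 also passed in the second libraries, a share of 61.0%. Applied to the second libraries they took 75 genes, of which the same 36, or 48%, passed in the first.

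Leukocyte markers were checked beside the members. Of 19 leukocyte markers, 15 were in the table and 5 reached 1 TPM in any library. The sum of the list was 183 to 188 TPM in the parental cells, 167 to 177 TPM in MLL1-KO1 and 228 to 238 TPM in MLL1-KO2, and most of it was CD68, at 159 to 287 TPM over all libraries. LYZ, lysozyme, stood at 1.56 and 1.32 TPM in the parental cells, 5.83 and 6.32 TPM in MLL1-KO1 and 6.04 and 5.23 TPM in MLL1-KO2, and was called higher in both lines. CD14 stood at 2.31 and 1.90 TPM in the parental cells, 0.679 and 0.827 TPM in MLL1-KO1 and 1.31 and 1.16 TPM in MLL1-KO2, and it and CD8A were called lower in MLL1-KO1. The defining marker PTPRC (CD45) stood at 0.413 and 0.366 TPM in the parental cells, 0.0165 and 0.0336 TPM in MLL1-KO1 and 0.0996 and 0.0563 TPM in MLL1-KO2. CD3E stayed at or under 0.0802 TPM and ITGAM at or under 0.0544 TPM in every library, and S100A9 and HBB were at 0 in all 14. The part of other cells in the members' levels was not tested.

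BMP2 was the only member of 13 gene lists on chromatin, signaling and cell types. Of 24 genes of the BMP pathway, from ligands and receptors to SMAD proteins, antagonists and ID target genes, 17 passed the filter. In each MLL1-KO line 3 were called higher and 6 lower. The 3 include BMP2, whose rise the choice of genes largely fixed, so the count is a description. Of all genes tested, 6.89% were called higher and 16.3% lower in MLL1-KO1, with 10.2% and 14.9% in MLL1-KO2. The median log2 difference of the 17 genes was -0.21 in both MLL1-KO1 and MLL1-KO2, against -0.09 and -0.04 over all genes tested. Higher in both lines, beside BMP2, were its antagonist NOG, at 43.3 and 44.6 TPM in the parental cells, 92.8 and 102 TPM in MLL1-KO1 and 142 and 145 TPM in MLL1-KO2, and the inhibitory SMAD7, by 2.48 ± 0.156 and 2.78 ± 0.156 on the log2 scale (limma adjusted p = 1.73e-07 and 5.92e-08). Lower in both lines were the receptor BMPR1B, SMAD9, FST, ID3 and ID4. ID3 stood at 6.17 and 5.76 TPM in the parental cells, 0.792 and 0.703 TPM in MLL1-KO1 and 0.238 and 0.225 TPM in MLL1-KO2, and ID4 at 9.47 and 7.99, 1.42 and 1.06, and 1.03 and 0.718 TPM. BAMBI was called lower in MLL1-KO1 alone and SMAD6 in MLL1-KO2 alone. ID1 was called in neither line, at means of 47.7 TPM in the parental cells, 42.7 TPM in MLL1-KO1 and 34.6 TPM in MLL1-KO2. The ligand BMP4, also called in neither, stood at means of 245, 313 and 357 TPM, well above BMP2.

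Of the 49 genes, 45 had a position on GRCh37, on 19 chromosomes, with 7 on chromosome 1 and 5 each on chromosomes 11 and 20. LINC00659 and COL9A3, 43 kb apart on chromosome 20, were the only members within 1 megabase of each other. LINC00659 was on in both lines and COL9A3 in MLL1-KO2 alone, with 1 of its MLL1-KO1 libraries at 2.02 TPM. For each member, the median log2 difference from parental was taken over the 51 tested genes centered on it. Over the 45 members this had a median of -0.05 for MLL1-KO1 and of -0.04 for MLL1-KO2. Around MMP3 and BARX2, on the long arm of chromosome 11, MLL1-KO1 gave -0.93 and -0.93 but MLL1-KO2 gave -0.37 and -0.30, while around RNF128, on chromosome X, the lines gave 0.37 and 0.46. MMP3 and BARX2 were both on in MLL1-KO2 alone, and the part of their lower surroundings in MLL1-KO1 in that split was not tested.

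**Figure D5:**
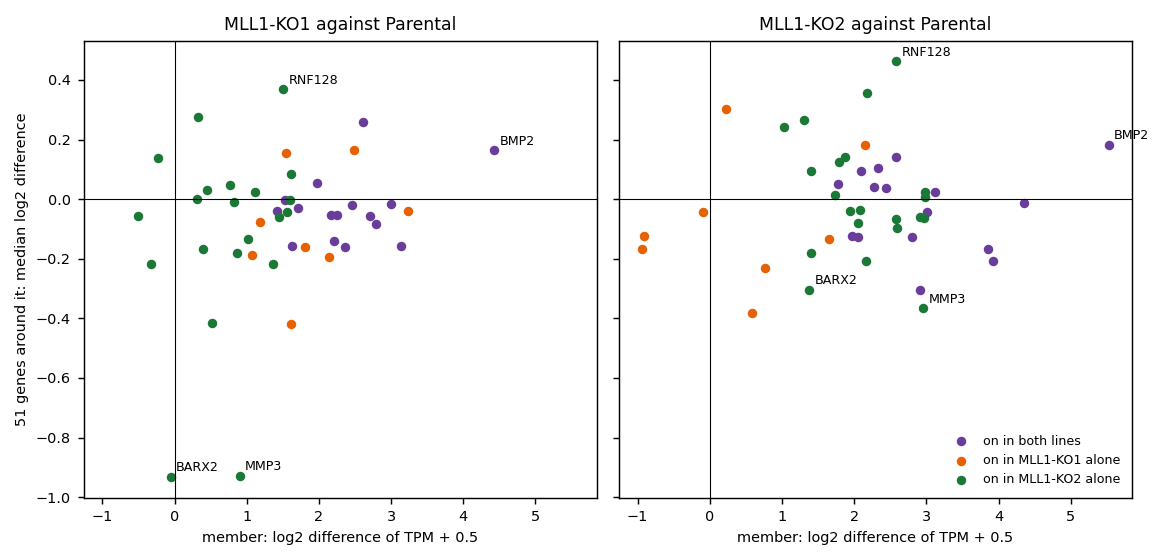
Log2 difference of each member from the parental cells (x axis) and the median of the 51 tested genes around it (y axis), for MLL1-KO1 and MLL1-KO2, in the 45 genes with a position. Points spread along the x axis while most neighborhoods stay near 0, with MMP3 and BARX2 at -0.93 in MLL1-KO1.

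Of the 49 genes, 27 matched an entry in the RefSeq promoter sequences (GRCh38.p14, 250 bases before to 50 after the start). With 55.1% matched, a comparison of promoter sequence between the members and other genes is void, and the sequences are described only. Over the 27 promoters the observed over expected ratio of CG dinucleotides, a measure that is high in CpG islands, reached 0.6 in 10. It lay below 0.6 in the others. Whether the 49 members share a promoter class was not tested, since only 27 matched. The ratio ran from 0.0847 in RNF128 to 0.990 in DHRS3. These extremes are shown with every CG in capitals, 1 in RNF128 (chrX:106693588-106693887, plus strand) and 31 in DHRS3 (chr1:12618161-12618460, minus strand).
RNF128: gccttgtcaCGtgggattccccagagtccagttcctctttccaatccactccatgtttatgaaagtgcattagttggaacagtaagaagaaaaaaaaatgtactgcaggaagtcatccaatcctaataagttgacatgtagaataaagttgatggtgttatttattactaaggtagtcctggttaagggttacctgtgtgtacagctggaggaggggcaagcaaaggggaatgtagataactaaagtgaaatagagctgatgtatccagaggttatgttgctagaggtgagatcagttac
DHRS3: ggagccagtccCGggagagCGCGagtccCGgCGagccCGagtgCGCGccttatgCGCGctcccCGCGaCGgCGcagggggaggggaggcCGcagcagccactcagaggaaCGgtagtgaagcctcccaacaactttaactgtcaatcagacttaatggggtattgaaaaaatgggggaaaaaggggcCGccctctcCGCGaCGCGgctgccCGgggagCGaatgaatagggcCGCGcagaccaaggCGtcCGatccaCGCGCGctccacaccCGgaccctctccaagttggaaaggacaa

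Of 8 motifs searched, the TATA box letters are described, chosen after the matches were seen. TATAAA was found on either strand in 2 of the 27, LINC00659 (chr20:62776807-62777106, minus strand) and SPTB (chr14:64879858-64880157, minus strand), and in 11.95% of all 27305 promoters in the table and 5.65% of the 10247 of genes tested. In both it lies from base -31 to base -26 before the start, in LINC00659 on the strand of the gene and in SPTB, as TTTATA, on the other. The letters are in capitals, and a match is a description of the sequence, not a site.
LINC00659: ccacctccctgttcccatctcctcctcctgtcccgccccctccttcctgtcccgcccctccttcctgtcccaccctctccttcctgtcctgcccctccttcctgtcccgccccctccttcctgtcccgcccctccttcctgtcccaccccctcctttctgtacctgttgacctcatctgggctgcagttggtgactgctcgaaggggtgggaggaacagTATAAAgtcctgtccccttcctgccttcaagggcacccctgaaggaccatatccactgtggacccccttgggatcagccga
SPTB: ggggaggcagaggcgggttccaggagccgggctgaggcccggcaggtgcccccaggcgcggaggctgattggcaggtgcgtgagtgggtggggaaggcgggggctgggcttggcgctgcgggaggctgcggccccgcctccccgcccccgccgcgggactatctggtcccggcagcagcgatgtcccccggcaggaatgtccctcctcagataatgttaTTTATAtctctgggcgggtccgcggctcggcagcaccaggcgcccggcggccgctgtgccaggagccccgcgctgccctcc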

How the data were processed

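RNA from MDA-MB-231 cells was sequenced from 14 libraries. Per the labels, FastQC 0.11.2, TopHat and featureCounts were used with build hg19, and the counting strand and the annotation are not given in the sources used here. The authors named the deposited values RPKM, but each library sums to 1000000, so they are TPM. From the smallest value steps, read counts came out whole for all 18519 genes above 0 (tolerance 0.02 reads).

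Groups came from the sample titles. The 49 members and the gene lists were chosen with earlier results of these data known. Limma 3.58.1 (R 4.3.3, Python 3.11.15) with a mean-variance trend was fitted to log2(TPM + 0.5) in 7 group means, for 13540 genes at 1 TPM or more in at least 2 libraries. Genes were called at a Benjamini-Hochberg adjusted p under 0.05 and 1.5-fold. The test was also run on simulated reads. There the spread was a fixed value and changes were set only in genes above a read minimum, so changes in genes with fewer reads were not checked. Fold changes on this scale understate low genes. Members on in both lines were named (2 are counted but not reported here), the highest 15 of each other class, families, near neighbors and genes beside each threshold, with other members in grouped sentences. Positions came from GENCODE on GRCh37. Promoters were searched for 8 motifs on both strands, and no comparison was drawn because too few members matched. The alternatives are given at the end.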

Additional observations from a re-analysis of the deposited data

Results flagged for a closer look

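For 7 genes on in both MLL1-KO lines, the level differed between the lines by limma (adjusted p under 0.05 and at least 1.5-fold), as log2 values of MLL1-KO2 minus MLL1-KO1. These were SH2D2A at 1.90, AKR1C1 at 1.64, ADAMTS7 at 1.19, BMP2 at 1.10, CYP27C1 at 0.91, PTK2B at 0.80 and KCNK2 at -0.82. For 5 genes on in 1 line alone, both libraries of that line lay above both parental libraries and both libraries of the other MLL1-KO line lay below them, a pattern that the choice of genes partly fixes. No test of the difference between the lines is given for them, since the choice used these libraries. In the line where each was not on, the log2 difference from parental was -0.94 for CDH18 and -0.92 for TMTC1 in MLL1-KO2, and -0.51 for EFR3B, -0.32 for LRAT and -0.23 for GSDMC in MLL1-KO1.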

How the results depend on the processing

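With the on threshold at 1 TPM, 140 genes passed (46 in both lines, 29 in MLL1-KO1 alone, 65 in MLL1-KO2 alone), at 3 TPM 27 passed (3 in MLL1-KO1 alone, 12 in MLL1-KO2 alone) and at 5 TPM 13 passed (3, 3 and 7). With the ceilings on the means at 0.5 TPM, 16 passed (4, 4 and 8), and with each of the 10 other libraries under 1 TPM, 30 passed (10 in both lines, 13 in MLL1-KO2 alone). The second libraries alone took 75 genes (15 in MLL1-KO1 alone, 43 in MLL1-KO2 alone), and quantile normalization put 16 in MLL1-KO1 alone. Leaving out 1 library of the 14 at a time gave 47 to 66 genes in all and 17 to 22 in both lines, but 8 to 20 in MLL1-KO1 alone (20 without its first library and 14 without its second) and 18 to 39 in MLL1-KO2 alone (39 without its first library). Without the 4 small RNA genes, a choice made after seeing the data, 45 genes remained.

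Of all genes tested, those called higher in MLL1-KO1 than parental numbered 1410 after quantile normalization, which moved the median of all genes by 0.143 on the log2 scale, 2954 with no fold minimum and 385 with a 2-fold minimum. Those higher in MLL1-KO2 than parental numbered 3787 and 588 with these minimums, those higher in MLL1-KO2 than MLL1-KO1 3546 and 260, and those lower 2148 and 168. The 6 genes on in both lines and higher in MLL1-KO2 were called in each of the 12 other fits. The single lower gene became 0 with a pseudocount of 0.1 and with a 2-fold minimum, and 2 with quantile normalization, median ratio scaling or voom on recovered reads, and it ranged from 0 to 1 without 1 library of a line, with 0 without the second MLL1-KO1 library. Differences near 0 changed sign. ANO1 was at -0.072 with quantile normalization, -0.018 with median ratio scaling and -0.13 to 0.18 without 1 library, SERPINA1 at -0.0082 with quantile normalization and -0.040 to 0.26 without 1 library, and KPNA7 at -0.023 with quantile normalization and -0.12 to 0.27 without 1 library. PTHLH and LINC00659 passed the threshold in 3 and 1 of the other fits. With the replicate number as a block (replicate block), 929 genes were called higher in MLL1-KO1 and 1389 in MLL1-KO2 than parental, and the block changed no call among the 18. Libraries that share a number did not deviate together over the genes tested (r from -0.073 to 0.082 over 21 pairs of groups). This gave no sign of pairing, but it cannot exclude that libraries with the same number were made together. Depth limits the 4 small RNA genes, where 1 read decides membership.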
